A study of Mus musculus with 14 samples.

Results

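Transforming growth factor-beta (TGF-beta) ligands, their receptors, the activin subunits, 2 bone morphogenetic proteins (BMPs) and 1 intracellular inhibitor were examined in the kidneys of mice by bulk RNA sequencing, on day 0 and then 1 and 3 days after renal ischemia/reperfusion injury (IRI). The 10 genes were taken by symbol, namely Tgfb1, Tgfb2, Tgfb3, Inhba, Inhbb, Bmp2, Bmp7, Tgfbr1, Tgfbr2 and Smad7, out of 24411 gene symbols in the count files. All 10 were among the 14300 genes that passed the filter on low counts. Day 0 had 4 libraries, and day 1 and day 3 had 5 libraries each. Every library came from the kidney of a male C57/B6 mouse aged 8 weeks, with no genetic alteration or further treatment stated, and total RNA was prepared with TRIzol and an Illumina TruSeq kit. The labels give the day alone, the injury is known from the study, and neither source used here says whether the day 0 mice had sham surgery. The labels do not say that the libraries of a day came from separate animals, so the p-values measure the spread between these libraries.

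TGF-beta, activins and BMPs are secreted dimers that bring type I and type II receptor kinases together, and the activated type I receptor phosphorylates Smad proteins that move to the nucleus and regulate transcription. TGF-beta and activin signal mainly through Smad2 and Smad3, BMPs mainly through Smad1, Smad5 and Smad9, and both branches use Smad4. In the kidney TGF-beta is best known as a driver of fibrosis, and BMP7 as a factor needed for nephron formation that adult tubules continue to make.

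Tgfb1, Tgfbr1, Tgfbr2 and activin subunit beta B (Inhbb) were higher than at day 0 on both days after IRI. Inhbb differed by far the most, while Bmp7 overlapped between the days. At day 1 there were 7 of the 10 genes higher than at day 0 and the other 3 were not called, at an adjusted p under 0.05 in edgeR's quasi-likelihood test. In that comparison 23.3% of all genes tested were called higher and 18.7% lower. At day 3 there were 5 of the 10 genes higher than at day 0 and 5 not called, against 19.5% and 13.8% of all genes. Inhba is 1 of these 5 and passed the filter on low counts only through libraries after injury. Both comparisons use the same 4 day 0 libraries. Between day 1 and day 3 the test called 1 of the 10 genes, Smad7, which fell, with 8.52% of all genes called higher and 7.39% lower at day 3. The median log2 fold change of the 10 genes was 1.15 at day 1 and 0.83 at day 3 against day 0, beside medians of 0.01 and 0.05 over all genes tested. Scaling by library totals alone moved the median of all genes by 0.14 at day 3 against day 0 and by 0.15 at day 3 against day 1, in the direction of higher values at day 3.

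Levels are given as CPM, the reads of a gene relative to all reads on genes of its library after TMM scaling, and listed in the order of the replicate numbers. Reads on genes ranged from 12485579 to 20476979 per library. Library names carry a number of either 1 or 3 digits. Day 0 has 1-digit numbers throughout, whereas replicates 1 and 2 from day 1, together with replicates 1 to 3 from day 3, have 3-digit numbers. What this format marks is not stated in the sources used here, so it is handled as a possible technical batch, and values within each format stand beside the pooled ones. In bulk tissue, fewer cells of a type and less RNA per cell cannot be told apart.

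**Figure D1:**
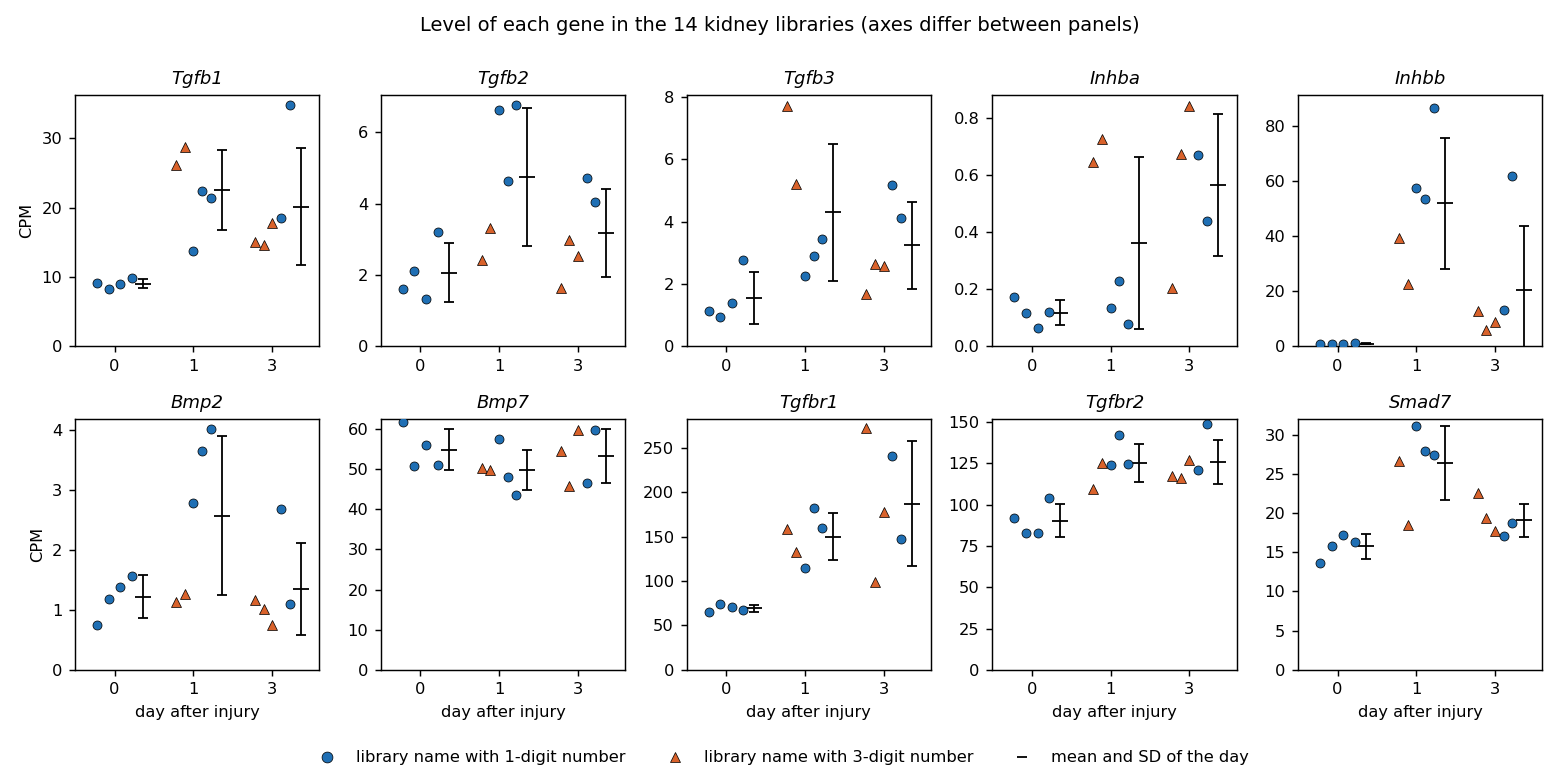
Level of each gene in CPM on the vertical axis, which starts at 0 and differs between panels, against the day after injury. Points are libraries (blue circles for 1-digit and orange triangles for 3-digit numbers in the library name), and the black marks give the mean and SD of the day, with the lower end of 1 bar for Inhbb cut at 0. Inhbb lies near 0 CPM in the 4 day 0 libraries and between 22.7 and 86.5 CPM at day 1, Bmp7 overlaps between all days, and Bmp2 at day 1 lies at 1.13 and 1.27 CPM in the 3-digit libraries and at 2.79 to 4.02 CPM in the 1-digit libraries.

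The promoters of 4 ligand genes are shown because these genes took different courses, Inhbb with the largest difference from day 0, Inhba with the fewest reads, Tgfb1 called at both days after injury and Tgfb2 called at day 1 alone. The promoter table matched 6 of the 10 genes. Each sequence is the 250 bases before the annotated start, on the gene's strand, from RefSeq on GRCm38.p6. Inhbb has chr1:119422249-119422498 on the minus strand, Inhba chr13:16011601-16011850 on the plus strand, Tgfb1 chr7:25686752-25687001 on the plus strand and Tgfb2 chr1:186705990-186706239 on the minus strand. Capitals mark matches on either strand to the GC box, searched as GGGCGG, the TATA box, searched by the letters TATAAA, the Smad element, searched by the letters CAGAC, and the core of the hypoxia response element, searched by the letters ACGTG.
Inhbb: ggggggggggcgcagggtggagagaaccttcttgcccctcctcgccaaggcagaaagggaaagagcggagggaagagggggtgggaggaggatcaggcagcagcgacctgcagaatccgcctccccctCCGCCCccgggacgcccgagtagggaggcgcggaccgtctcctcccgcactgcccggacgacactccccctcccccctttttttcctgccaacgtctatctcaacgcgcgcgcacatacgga
Inhba: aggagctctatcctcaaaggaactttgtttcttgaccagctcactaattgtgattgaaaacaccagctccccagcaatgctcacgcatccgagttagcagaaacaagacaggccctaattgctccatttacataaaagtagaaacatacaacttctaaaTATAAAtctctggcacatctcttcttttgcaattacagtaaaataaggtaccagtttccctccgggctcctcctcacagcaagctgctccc
Tgfb1: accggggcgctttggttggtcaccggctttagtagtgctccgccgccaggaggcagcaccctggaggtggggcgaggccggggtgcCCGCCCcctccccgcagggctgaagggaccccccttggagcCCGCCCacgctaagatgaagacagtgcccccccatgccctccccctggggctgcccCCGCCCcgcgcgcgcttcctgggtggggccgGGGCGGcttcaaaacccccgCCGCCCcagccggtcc
Tgfb2: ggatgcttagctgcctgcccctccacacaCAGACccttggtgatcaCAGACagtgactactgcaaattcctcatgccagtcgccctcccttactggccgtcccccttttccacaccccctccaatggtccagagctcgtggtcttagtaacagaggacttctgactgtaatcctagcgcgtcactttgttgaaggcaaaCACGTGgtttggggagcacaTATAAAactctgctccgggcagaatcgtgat

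In these stretches Tgfb1 holds 5 GC boxes, Inhbb holds 1 and Inhba and Tgfb2 hold none. A TATA box lies at -31 to -26 from the start in Tgfb2 and at -91 to -86 in Inhba. Tgfb2 has 2 Smad elements and 2 overlapping cores of the hypoxia response element on opposite strands. Of 32851 RefSeq promoter stretches of the same length, 32.74% hold a GC box, 12.37% a TATA box, 42.19% a Smad element and 16.57% the hypoxia core. The base composition also differed, with a GC content of 75.2% in Tgfb1, 68% in Inhbb, 53.6% in Tgfb2 and 43.2% in Inhba, beside a median of 52.4% over all stretches. The remaining motifs were searched in the same way, AP-1 (TGANTCA, in 6.75% of all stretches), the cyclic AMP element (TGACGTCA, 1.55%), STAT (TTCNNNGAA, 7.02%) and the BMP Smad element (GGCGCC, 9.59%), and these letters do not occur in the 4 windows printed. A match is a run of letters and not evidence that a factor binds. Elsewhere in GRCm38, Tgfb3 lies at chr12:86056745-86079041, Bmp7 at chr2:172868012-172940321, Bmp2 at chr2:133552159-133562885, Tgfbr1 at chr4:47353222-47414931 and Tgfbr2 at chr9:116084293-116175360. Exons of Tgfb2 and Tgfb3 overlap genes on the opposite strand, from which the strand-specific counts separate them.

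Inhbb encodes the beta B subunit of activin B and inhibin B. Its level at day 0 was 0.978, 0.765, 1.01 and 1.09 CPM, from 13 to 18 reads per library. At day 1 it was 39.2, 22.7, 57.2, 53.3 and 86.5 CPM. At day 3 it was 12.9, 6.08, 8.91, 13.1 and 61.8 CPM. Every library after injury was above every day 0 library, and replicate 5 of day 3 was the only day 3 library within the range of day 1. Inhbb rose 53.5-fold at day 1 against day 0 (95% interval 17.8 to 161, log2 fold change 5.74 ± 0.74 SE, adjusted p = 8.76e-05). It rose 21.2-fold at day 3 (95% interval 7.38 to 60.8, log2 fold change 4.40 ± 0.71 SE, adjusted p = 0.000587). The mean at day 3 was 20.6 ± 23.2 CPM (SD, n = 5), and 10.3 ± 3.39 CPM (SD, n = 4) without replicate 5, where the log2 fold change against day 0 was 3.42 (adjusted p = 0.000106). Day 3 against day 1 gave a log2 difference of -1.34 (95% interval -2.47 to -0.20, adjusted p = 0.0985). Without replicate 5 of day 3 that difference was -2.35 (adjusted p = 0.000979). With all libraries it was called in DESeq2 (adjusted p = 0.0409) and with number format as a term (adjusted p = 0.0254).

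Inhba encodes the beta A subunit of activin A and was the least abundant of the 10 genes. It had 3, 2, 1 and 2 reads in the day 0 libraries, or 0.0632 to 0.173 CPM. At day 1 it had 12, 16, 2, 4 and 1 reads, or 0.0804 to 0.727 CPM. At day 3 it had 4, 12, 17, 10 and 6 reads, or 0.204 to 0.842 CPM. The high day 1 libraries were replicates 1 and 2, both with 3-digit numbers. Replicates 3 and 5 of day 1 lay within the day 0 range, and replicate 4, at 0.229 CPM, lay just above it. Because day 0 holds so few reads, the ratio of summed reads is given with its counting interval, which covers counting error only. It was 4.75 at day 3 against day 0 (49 against 8 reads, 95% interval 2.23 to 11.6). At day 1 it was 3.43 (35 against 8 reads, 95% interval 1.56 to 8.55). Inhba passed the filter on low counts through 2 libraries of day 1 and 3 of day 3, with 0 of day 0, so it could be tested only because it was high after injury, and its calls are no independent sign of a difference from day 0. The fit called Inhba higher at day 3 (adjusted p = 0.021) and did not call it at day 1 (adjusted p = 0.0656). The day 3 call was lost without replicate 2, 3 or 4 of day 0, with adjusted p up to 0.0656, and with number format as a term (adjusted p = 0.0632), and the day 1 difference was called without replicate 3 or 5 of day 1, with adjusted p down to 0.0374.

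Tgfb1 encodes TGF-beta 1, which cells secrete in a latent form. Its day 0 level was 9.09, 8.24, 8.97 and 9.92 CPM. At day 1 it was 26.2, 28.8, 13.8, 22.5 and 21.5 CPM. At day 3 it was 15.1, 14.6, 17.8, 18.5 and 34.9 CPM. All libraries after injury lay above all day 0 libraries, and the 5 libraries of day 1 overlapped with those of day 3. Tgfb1 rose 2.49-fold at day 1 (95% interval 1.68 to 3.70, adjusted p = 0.00178) and 2.22-fold at day 3 (95% interval 1.5 to 3.30, adjusted p = 0.0052). The log2 difference between day 3 and day 1 was -0.16 (95% interval -0.68 to 0.35, adjusted p = 0.679). Replicate 5 of day 3 was again the highest, and without it Tgfb1 at day 3 averaged 16.5 ± 1.93 CPM (SD, n = 4) and its log2 fold change against day 0 was 0.88 in place of 1.15.

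Tgfb2 and Tgfb3 encode the other isoforms of the ligand and were far less abundant, with 16 to 53 reads per day 0 library. Tgfb2 was at 1.61, 2.12, 1.33 and 3.21 CPM at day 0. In the day 1 libraries it was at 2.42, 3.32, 6.61, 4.63 and 6.76 CPM. At day 3 it was at 1.63, 2.98, 2.52, 4.71 and 4.04 CPM. Replicate 4 of day 0 lay within the range of both later days. Tgfb2 rose 2.29-fold at day 1 (95% interval 1.27 to 4.11, adjusted p = 0.0262), and at day 3 the fold was 1.53 (95% interval 0.855 to 2.74, adjusted p = 0.24). With number format as a term the day 3 difference was called (log2 fold change 1.13, adjusted p = 0.0115). The day 1 call was lost without replicate 1, 2 or 3 of day 0 or replicate 3 or 5 of day 1, with log2 fold changes from 1.03 to 1.21 in those fits and adjusted p up to 0.0804.

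Tgfb3 was at 1.15, 0.942, 1.39 and 2.78 CPM at day 0. In the day 1 libraries it was at 7.71, 5.22, 2.25, 2.91 and 3.46 CPM. In the day 3 libraries it was at 1.68, 2.65, 2.57, 5.18 and 4.11 CPM. As for Tgfb2, replicate 4 of day 0 was the highest of its day and overlapped with both later days. Tgfb3 rose 2.76-fold at day 1 (95% interval 1.41 to 5.38, adjusted p = 0.0186), and at day 3 the fold was 2.06 (95% interval 1.06 to 4.0, adjusted p = 0.0871). The day 1 call was lost without replicate 1, 2 or 3 of day 0 or replicate 1 of day 1, with adjusted p up to 0.0597. The day 3 difference was called without replicate 4 of day 0 (adjusted p = 0.0355).

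Bmp7 was at 61.7, 50.8, 56.0 and 51.0 CPM at day 0. In the day 1 libraries it was at 50.4, 49.7, 57.5, 48.2 and 43.7 CPM. In the day 3 libraries it was at 54.5, 45.7, 59.8, 46.7 and 59.7 CPM. The 3 days overlapped throughout. The fold against day 0 was 0.910 at day 1 (95% interval 0.759 to 1.09, adjusted p = 0.378) and 0.971 at day 3 (95% interval 0.810 to 1.16, adjusted p = 0.809), so levels below 0.759 of day 0 lie outside both intervals. With between 543 and 1207 reads per library, Bmp7 was measured with narrower intervals than the rarer ligands.

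Bmp2, a ligand that signals through the BMP receptors, was at 0.748, 1.18, 1.39 and 1.57 CPM at day 0. On day 1 it was at 1.13, 1.27, 2.79, 3.66 and 4.02 CPM. In the day 3 libraries it was at 1.17, 1.01, 0.743, 2.69 and 1.10 CPM. The 3 high libraries of day 1 were those with 1-digit numbers, and replicates 1 and 2 lay within the day 0 range. The pooled day 1 fold was 2.09 (95% interval 1.05 to 4.18, adjusted p = 0.0796) and was called without replicate 1 or 2 of day 1, with adjusted p down to 0.0422, and with number format as a term (log2 fold change 1.41, adjusted p = 0.00295). At day 3 the fold was 1.09 (95% interval 0.547 to 2.19, adjusted p = 0.849).

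Tgfbr1 encodes the type I receptor of TGF-beta, a kinase that phosphorylates Smad2 and Smad3. It was at 65.5, 74.3, 70.2 and 67.5 CPM at day 0. On day 1 it was at 159, 133, 115, 183 and 160.2 CPM. On day 3 it was at 273, 98.5, 177, 241 and 148 CPM. No library after injury reached down to the day 0 range, and the day 3 libraries spread more widely (SD 70.2 CPM, n = 5) than those of day 1 (SD 26.3 CPM, n = 5). Tgfbr1 rose 2.16-fold at day 1 (95% interval 1.51 to 3.10, adjusted p = 0.00284) and 2.70-fold at day 3 (95% interval 1.88 to 3.89, adjusted p = 0.000863).

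Tgfbr2 encodes the type II receptor, which binds the ligand and activates the type I receptor. It was at 92.2, 82.7, 82.9 and 104 CPM at day 0. On day 1 it was at 109.6, 125, 124, 142 and 125 CPM. On day 3 it was at 117, 116, 127, 121 and 149 CPM. Each later day lay above day 0 without overlap, days 1 and 3 overlapped, and both folds were below those of Tgfbr1. Tgfbr2 rose 1.38-fold at day 1 (95% interval 1.16 to 1.65, adjusted p = 0.00672) and 1.39-fold at day 3 (95% interval 1.17 to 1.66, adjusted p = 0.00791), and the difference between day 3 and day 1 was 0.01 on the log2 scale (95% interval -0.23 to 0.25).

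Smad7 encodes an inhibitory Smad that binds the activated type I receptor and is itself a known transcriptional target of TGF-beta. It was at 13.6, 15.8, 17.2 and 16.3 CPM at day 0. On day 1 it was at 26.7, 18.5, 31.1, 27.9 and 27.4 CPM. On day 3 it was at 22.5, 19.3, 17.7, 17.0 and 18.7 CPM. All day 1 libraries were above day 0, and at day 3 replicate 4 fell back into the day 0 range. Smad7 rose 1.67-fold at day 1 (95% interval 1.33 to 2.11, adjusted p = 0.00218), and at day 3 the fold was 1.21 (95% interval 0.964 to 1.52, adjusted p = 0.179), called only with scaling by library totals (log2 fold change 0.41, adjusted p = 0.0329). It fell by 0.47 on the log2 scale from day 1 to day 3 (95% interval -0.77 to -0.16, adjusted p = 0.0415). That call was lost when replicate 1, 3, 4 or 5 of day 1 or replicate 2, 3 or 4 of day 3 was left out, with adjusted p up to 0.103, and it was lost with scaling by library totals, with no filter on low counts and with only the libraries of these days (adjusted p from 0.0528 to 0.135).

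Among the 10 genes, 5 had no overlap between day 1 and day 0 and 5 had none between day 3 and day 0, beside 42% and 33.4% of all genes tested. Tgfb1, Tgfbr1, Tgfbr2 and Inhbb were in both sets. Smad7 was separate at day 1, and Inhba, which the filter admitted through libraries after injury alone, at day 3. The calls for Tgfb1, Tgfbr1, Tgfbr2 and Inhbb at day 1 and day 3 held when any 1 library was left out.

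**Figure D2:**
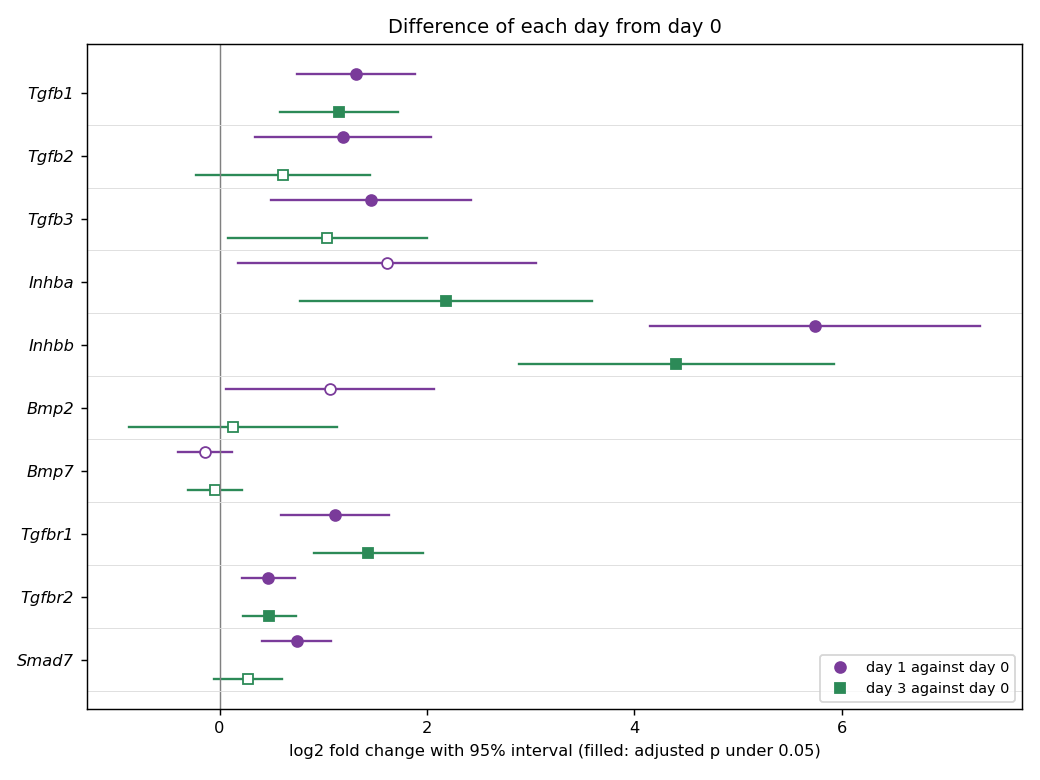
Log2 fold change against day 0 (horizontal axis) with its 95% interval for each gene (vertical axis), at day 1 (purple circles) and day 3 (green squares). Filled symbols have an adjusted p under 0.05, which holds for 7 genes at day 1 and 5 at day 3, and Inhbb stands to the right of the others at 5.74 and 4.40. The 5 at day 3 include Inhba, which passed the filter only through libraries after injury.

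Comparing genes with each other needs a scale per length, so CPM was divided by the kilobases of annotated exon sequence of each gene. At day 0 the order was Bmp7 (13.7 ± 1.28 CPM per kb, SD, n = 4), Tgfbr2 (11.0 ± 1.22), Tgfbr1 (10.6 ± 0.580), Smad7 (3.48 ± 0.344), Tgfb1 (1.80 ± 0.136), Tgfb3, Tgfb2, Bmp2, Inhbb (0.226 ± 0.0325) and Inhba (0.0186 ± 0.00699). Bmp7 and Tgfbr2, Tgfbr2 and Tgfbr1, and each neighbouring pair from Tgfb3 to Inhbb overlapped in their libraries, and the other neighbours did not. At day 1 Tgfbr1 led (23.0 ± 4.03 CPM per kb, SD, n = 5) and did not overlap with Tgfbr2 (15.3 ± 1.41). Inhbb moved from the ninth place to the fourth (12.2 ± 5.56) and overlapped with Bmp7 (12.4 ± 1.24) above it and Smad7 (5.82 ± 1.04) below it. At day 3 the order by means was the same as at day 1, with Inhbb at 4.83 ± 5.46 CPM per kb (SD, n = 5) beside Smad7 at 4.21 ± 0.469 and Tgfb1 at 4.0 ± 1.67, which overlapped. The place of Inhbb rested on replicate 5 of day 3, and without it Inhbb was at 2.41 ± 0.797 CPM per kb (SD, n = 4), below Smad7 at 4.23 ± 0.539 and Tgfb1 at 3.27 ± 0.383.

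Within each group of ligands among the 10 genes the leading member did not change. Other ligands of the family were left out of these shares. Tgfb1 made up 69.6% ± 7.29 of the length-scaled TGF-beta ligand RNA at day 0 (SD, n = 4), 67.6% ± 5.40 at day 1 and 72.5% ± 7.59 at day 3 (SD, n = 5 each). Bmp7 made up 97.5% ± 0.843, 94.4% ± 3.07 and 97.1% ± 1.86 of the sum of Bmp7 and Bmp2 on the same days. Inhbb was 92.3% ± 2.88, 99.3% ± 0.859 and 96.5% ± 2.85 of the sum of both activin subunits. Of the sum of both receptors, Tgfbr1 made up 49.1% ± 3.76 at day 0, 59.7% ± 4.31 at day 1 and 63.3% ± 9.86 at day 3. The Tgfbr1 share was 44.9% to 53.0% in the day 0 libraries and 53.7% to 64.5% in the day 1 libraries, without overlap, and 51.5% to 74.4% at day 3.

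**Figure D3:**
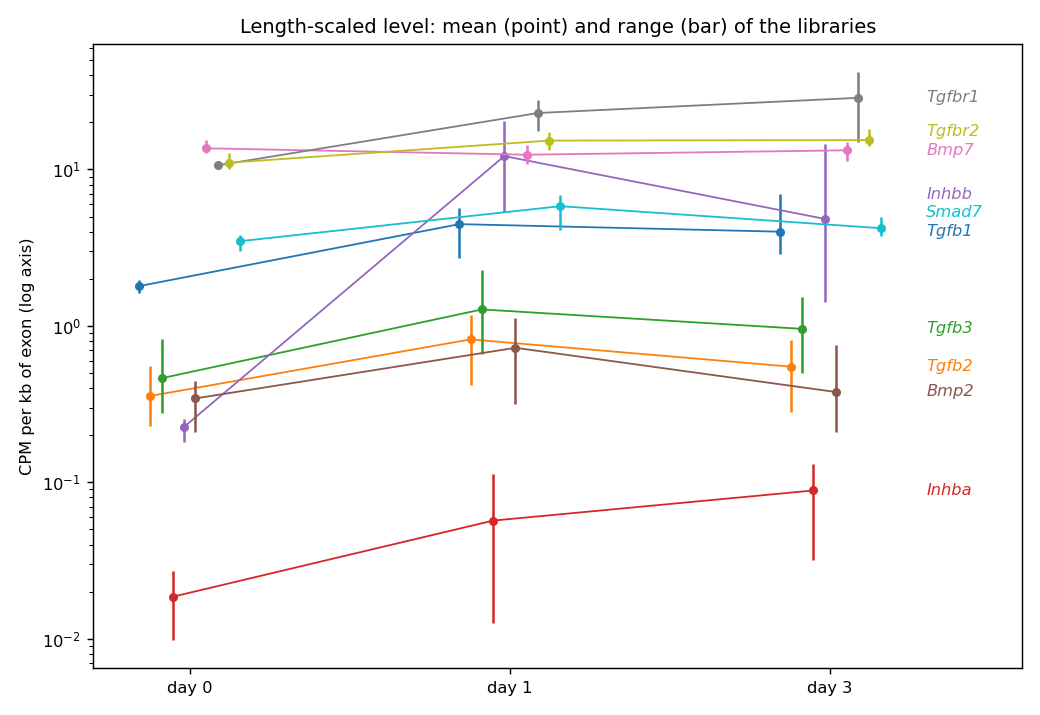
Length-scaled level of the 10 genes (CPM per kb of exon, log axis) at day 0, day 1 and day 3, with points for the mean of the libraries and vertical bars for their range. Inhbb climbs from 0.226 at day 0 to 12.2 at day 1, where its bar overlaps that of Bmp7, and Inhba stays lowest at 0.0186, 0.0569 and 0.0887.

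In the fit that splits each day by format, 3-digit libraries of day 1 differed from 1-digit libraries in 4 of the 10 genes, which is close to the 35% of all genes tested. The formats did not overlap in 7 of the 10, beside 60.7% of all genes, and these were the same 4 with Tgfb1, Inhbb and Smad7, which were not called (adjusted p = 0.12, 0.0995 and 0.135). Tgfb3 was higher in the 3-digit libraries (log2 difference 1.17 ± 0.40 SE, adjusted p = 0.0373). Inhba had 12 and 16 reads in the 3-digit and 1 to 4 in the 1-digit libraries, and since the 3-digit ones were the 2 libraries of day 1 through which it passed the filter, its call by format is a description only. Bmp2 was lower (-1.53 ± 0.43, adjusted p = 0.0146), as was Tgfb2 (-1.06 ± 0.38, adjusted p = 0.0458). The 3-digit libraries of day 1 and the 1-digit libraries of day 3 number 2 each, so leaving out 1 of them leaves a lone library, which is assumed to vary like the other groups. Each of these 4 calls was lost when 1 of the 3-digit libraries of day 1 was left out in this way, with adjusted p up to 0.228 for Tgfb3, 0.216 for Tgfb2, 0.104 for Inhba and 0.0854 for Bmp2. Those of Tgfb2, Tgfb3 and Inhba were also lost without a 1-digit library of day 1 (replicate 3 or 5 for each of them). With all libraries, that of Tgfb2 was also lost with library totals (adjusted p = 0.113) and with no filter (adjusted p = 0.0536), and that of Inhba in DESeq2 (adjusted p = 0.0564). For Bmp7, Tgfbr1 and Tgfbr2 the format difference at day 1 lay between -0.15 and 0.01, with 95% intervals of -0.34 to 0.36, -0.77 to 0.64 and -0.46 to 0.15.

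Markers of several cell types moved with the format at day 1. The summed level of 5 proximal tubule markers, all detected, was 2498 to 3196 CPM in the 3-digit libraries and 7256 to 11249.5 CPM in the 1-digit libraries. The sum of 5 fibroblast and pericyte markers was 249 to 292 CPM against 118 to 159.9 CPM, and that of 4 smooth muscle markers 141 to 159.9 CPM against 34.1 to 55.6 CPM. Against day 0 some sums moved too, with the fibroblast and pericyte sum at 87.7 to 93.1 CPM at day 0. Of its 5 markers, 2 were called higher at day 1. The sum of 4 neutrophil markers was 1.20 to 1.84 CPM at day 0 and 44.8 to 192 CPM at day 1. The sum of 3 podocyte markers, for example, overlapped between these days (236 to 314 and 271 to 393 CPM). The part of these cell types in the levels of the 10 genes was not tested.

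At day 3 the format comparison called 1 of the 10 genes, beside 18.5% of all genes. The count over all genes was 2645, and it was 91 without replicate 5 of day 3, with 1 library left in the 1-digit group, and 4771 without replicate 1. Inhbb was lower in the 3-digit libraries (log2 difference -2.0 ± 0.48 SE, adjusted p = 0.0168). Without replicate 5 of day 3, which leaves replicate 4 as the lone 1-digit library, the difference was -0.51 (adjusted p = 0.458). The call was also lost without replicate 2 or 3 of day 3. Tgfb1 came close to the threshold, lower in the 3-digit libraries by 0.75 on the log2 scale (95% interval -1.29 to -0.22, adjusted p = 0.0502), and with 1 library of day 3 left out it ranged from -1.14 without replicate 4 (adjusted p = 0.00894) to -0.24 without replicate 5 (adjusted p = 0.582). DESeq2 called it with all libraries (adjusted p = 0.0335). At day 3 the direction of the proximal tubule markers was opposite to that of day 1, with 3512 to 9057 CPM in the 3-digit and 1627 to 1993 CPM in the 1-digit libraries, and their part in these values was not tested.

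Whether the format difference itself changed from day 1 to day 3 was tested with an interaction, which called 2 of the 10 genes beside 17.6% of all genes. Tgfb3 went from 1.17 higher to 1.01 lower in 3-digit libraries on the log2 scale, a change of -2.18 ± 0.57 SE (adjusted p = 0.0198). Tgfb1 went from 0.52 higher to 0.75 lower, a change of -1.27 ± 0.35 SE (adjusted p = 0.0249). The Tgfb1 value was -0.75 (adjusted p = 0.131) without replicate 5 of day 3, and its call was also lost without replicate 1 or 2 of day 1. The Tgfb3 call was lost without replicate 1 of day 1 (adjusted p = 0.0916) or replicate 4 of day 3 (adjusted p = 0.0566). Among the 10 genes, Inhbb was also called without replicate 4 of day 3 (adjusted p = 0.0339).

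Taken within a format, each day was compared with the same 4 day 0 libraries, which all have 1-digit numbers, so the 3-digit values set unlike formats side by side. The 1-digit libraries of day 1 were higher than day 0 in 7 of the 10 genes, against 58.5% of all genes called in either direction. The 3-digit libraries were higher in 7 as well, against 41.6%, but the genes were not the same. Tgfb2 and Bmp2 were called in the 1-digit libraries alone (log2 fold changes 1.53 and 1.51, adjusted p = 0.00108 and 0.0021, against 0.48 and -0.02 in the 3-digit libraries). Tgfb3 was called in the 3-digit libraries alone (2.04, adjusted p = 0.00105, against 0.87 in the 1-digit libraries). The tests of these 3 differences are the format tests at day 1 given above. Inhba, 1 of the 7 in the 3-digit libraries, had 2.45 and 0.35 in the 3-digit and 1-digit libraries. These are given as values only because of the way it passed the filter. Tgfb1, Tgfbr1, Tgfbr2, Inhbb and Smad7 were called in both formats, with log2 fold changes of 6.08 and 5.0 for Inhbb, 1.09 and 1.60 for Tgfb1, 1.14 and 1.07 for Tgfbr1, 0.53 and 0.38 for Tgfbr2 and 0.87 and 0.52 for Smad7 in the 1-digit and 3-digit libraries. In the 3-digit libraries the Tgfbr1, Tgfbr2 and Smad7 calls did not hold in every fit with 1 library of day 1 or day 3 left out, with adjusted p up to 0.113, 0.254 and 0.474, each reached with a lone 3-digit library of day 1.

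At day 3 the 1-digit libraries were higher than day 0 in 7 of the 10 genes, against 53.7% of all genes called in either direction, and the 3-digit libraries in 5, against 32.4%. Inhbb was at 5.27 and 3.27 above day 0 on the log2 scale, Tgfb1 at 1.56 and 0.81, Tgfbr1 at 1.49 and 1.4, and Tgfbr2 at 0.58 and 0.41, all called in both formats. Inhba, at 2.16 and 2.19, is counted too, but passed the filter only through libraries after injury. Tgfb2 and Tgfb3 were called in the 1-digit libraries alone (1.08 and 1.57, adjusted p = 0.0198 and 0.00428, against 0.20 and 0.55), and for these the format differences at day 3 were not called (adjusted p = 0.111 and 0.0942). Leaving out 1 library of day 1 or day 3 at a time ended the Tgfb2 call in the 1-digit libraries (adjusted p up to 0.10), the Inhba call in either format (up to 0.0898 and 0.0525) and the Tgfb1 and Tgfbr2 calls in the 3-digit libraries (up to 0.0566 and 0.085). 

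From day 1 to day 3 within a format, 1 of the 10 genes was called in the 1-digit libraries, against 32% of all genes in either direction, and 3 in the 3-digit libraries, against 13.9%. Smad7 differed by -0.69 on the log2 scale with 1-digit numbers and by -0.19 with 3-digit numbers (adjusted p = 0.0114 and 0.512), and the 1-digit call was lost without 1 of these libraries (adjusted p up to 0.0806). Inhbb had -0.81 and -1.73 (adjusted p = 0.217 and 0.0313), so the 3-digit libraries, which do not include replicate 5 of day 3, were lower at day 3. Tgfb1 had 0.47 and -0.80 (adjusted p = 0.164 and 0.0474), and Tgfb3 had 0.70 and -1.49 (adjusted p = 0.21 and 0.0278), opposite in sign between the formats, with the interaction given above as the test of that difference. These 3-digit calls were also lost in some fits without 1 library, with adjusted p up to 0.242 for Inhbb, 0.191 for Tgfb1 and 0.22 for Tgfb3.

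**Figure D4:**
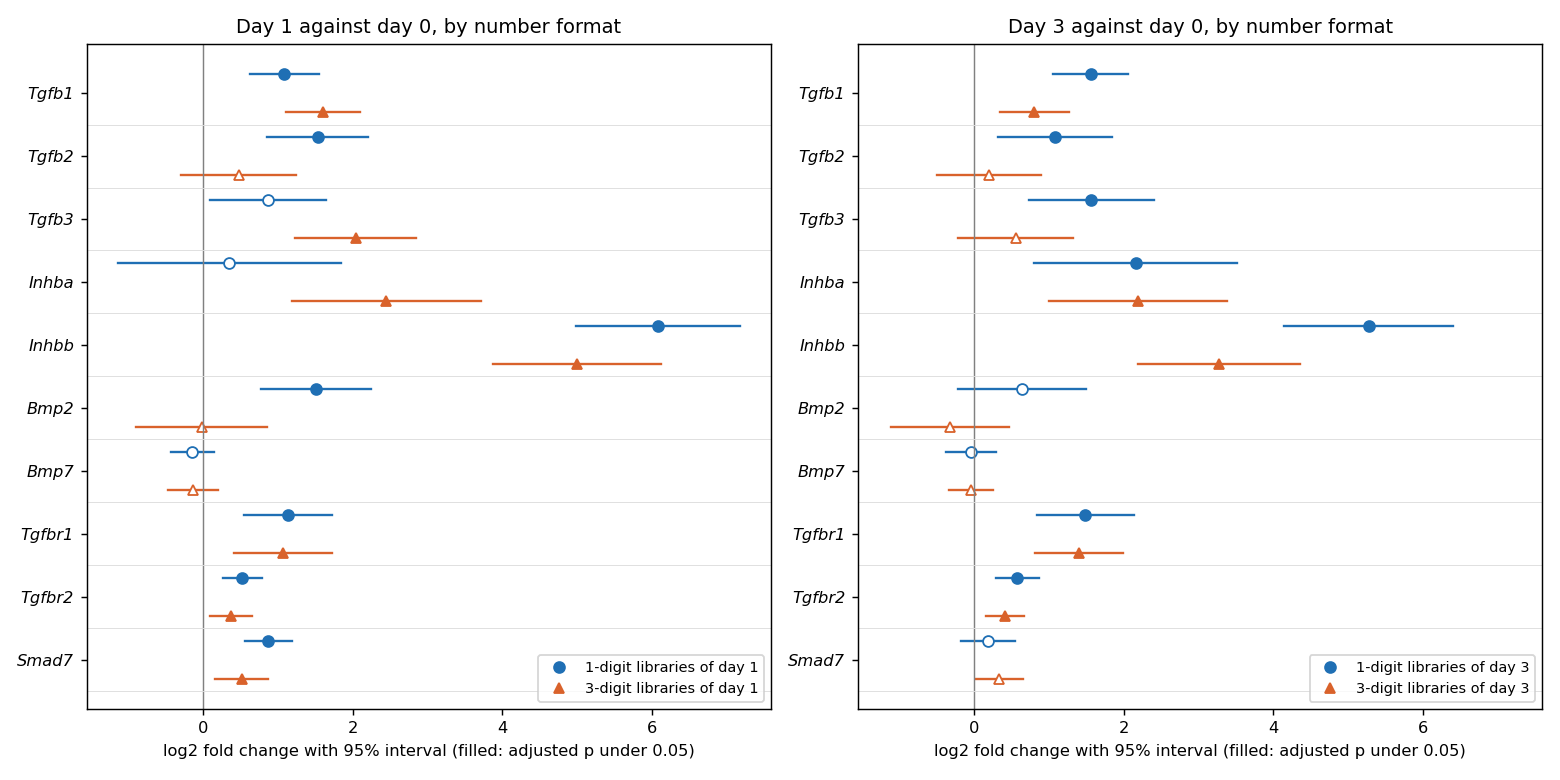
Log2 fold change against the 4 day 0 libraries with its 95% interval, for 1-digit (blue circles) and 3-digit libraries (orange triangles) of day 1 on the left and day 3 on the right, with filled symbols for an adjusted p under 0.05. At day 1 the formats part for Bmp2 (1.51 and -0.02) and Inhba (0.35 and 2.45), and they lie together for Bmp7, Tgfbr1 and Tgfbr2.

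Other genes of the pathway were taken from a list of 70, of which 67 passed the filter. At day 1, 25 of the 67 were higher than day 0, 10 lower and 32 not called, with a median log2 fold change of 0.40, beside 23.3% higher and 18.7% lower among all genes. At day 3, 26 were higher, 4 lower and 37 not called, with a median of 0.23, beside 19.5% and 13.8% of all genes. The groups by role are small, and a count of 1 or 2 in 8 to 12 genes is near those shares. Ltbp2, Inha and Bmper passed the filter, like Inhba, through libraries after injury alone, so their calls against day 0 follow in part from the filter. Bmp5 passed it through 4 libraries of day 0, 0 of day 1 and 1 of day 3. The same holds for its call at day 1. Genes are named here by the size of their change, and those named for their place in the pathway were chosen after their values were seen.

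The target genes of TGF-beta were the group with the highest median, 2.64 at day 1 and 2.99 at day 3 on the log2 scale. Of 7 such genes, 4 rose at day 1 (Lox, Ctgf, Tgfbi and Tagln) and 7 at day 3. Tgfbi, which encodes a secreted matrix protein induced by TGF-beta, went from 3.79 to 4.71 CPM at day 0 to 29.2 to 48.7 CPM at day 1 and 18.6 to 32.7 CPM at day 3 (log2 fold changes 3.10 and 2.42, adjusted p = 9.61e-07 and 5.32e-06). Lox, the lysyl oxidase that crosslinks collagen, rose by 4.09 and 4.42 on the log2 scale, with 4.92 and 3.99 at day 3 in the 1-digit and 3-digit libraries alone. Ctgf, connective tissue growth factor, rose by 3.14 at day 1, with 3.43 and 2.64 by format. Col1a1, the alpha 1 chain of type I collagen, was at 6.24 to 8.80 CPM at day 0 and 50.2 to 157 CPM at day 3 (log2 fold change 3.75, adjusted p = 0.0011), and at day 1 the value was 1.33 (adjusted p = 0.0903). Tagln, the actin-binding protein transgelin of smooth muscle, rose by 3.28 at day 3, with 4.19 in the 1-digit and 2.09 in the 3-digit libraries alone. The sum of 4 smooth muscle markers was 32.6 to 54.9 CPM at day 0, and at day 3 it was 269 to 339 CPM in the 1-digit and 75.9 to 135 CPM in the 3-digit libraries. The summed fibroblast and pericyte markers were at 317 to 700.1 CPM at day 3, against 87.7 to 93.1 CPM at day 0. Of the single markers, 2 of 4 for smooth muscle and 3 of 5 for fibroblasts and pericytes were called higher at day 3. The part of these markers in the values above was not tested.

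Of 14 Smads and Smad regulators, 9 rose and 2 fell at day 1, and 8 rose and 1 fell at day 3. Smad2 and Smad3, the effectors of TGF-beta and activin, were higher at day 1 by 0.86 and 1.29 on the log2 scale (adjusted p = 0.00039 and 9.75e-05). Of the effectors of BMP, Smad1 rose at day 1 and day 3 (log2 fold changes 1.87 and 1.28, adjusted p = 0.0005 and 0.00637). Smad5 also rose at both days (0.51 and 0.77, adjusted p = 0.0313 and 0.0051). Smad9 fell at day 1 and rose at day 3 (log2 fold changes -1.22 and 1.35, adjusted p = 0.0165 and 0.0118). Smad6, the other inhibitory Smad, was not called at either day (-0.15 and 0.09, adjusted p = 0.494 and 0.728). Smurf2, a ubiquitin ligase that acts on Smads and receptors, fell by 0.62 on the log2 scale at day 3 (adjusted p = 0.00198).

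Of 10 genes that bind or activate latent TGF-beta, 4 rose (Thbs1, Itgav, Itgb6 and Lrrc32) and 1 fell at day 1, and Ltbp2 was called higher after the filter had admitted it through later libraries alone. Thbs1, thrombospondin-1, rose by 1.72, and Itgb8, the integrin chain beta 8 that can release active TGF-beta, fell by 2.22 on the log2 scale (adjusted p = 0.000271 and 0.000339). Of 8 activin and BMP receptor genes tested, 1 rose and 1 fell at day 1 (Acvr1 by 1.11 and Acvr1b by 0.64 on the log2 scale), and at day 3 their log2 fold changes lay between -0.51 and 0.37 with adjusted p of 0.153 or more. Of the 3 co-receptors, Cd109 rose at day 3 by 2.52 (adjusted p = 0.00122). Acvr2a and Acvr2b, the type II receptors of activin, had log2 fold changes of 0.06 and -0.08 at day 1 (adjusted p = 0.786 and 0.816).

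Among 12 antagonists and modulators, 2 were called higher and 2 lower at each day, shares near those of all genes. Of 8 other ligands 2 rose and 2 fell at day 1, and 3 rose at day 3. Inha is among the 3 that rose, Bmp5 among the 2 that fell, and Bmper among the antagonists called higher at each day. The filter admitted each mainly through the days where it was high. Chrdl1, which encodes the BMP antagonist chordin-like 1, went from 20.2 to 24.9 CPM at day 0 to 0.136 to 1.41 CPM at day 1 and 0 to 3.66 CPM at day 3 (log2 fold changes -5.08 and -3.67, adjusted p = 0.000331 and 0.0022). With only 1-digit or only 3-digit libraries of the later days these values were -7.04 and -4.08 at day 1 and -5.37 and -3.14 at day 3, all called. Sostdc1, an antagonist of BMP and Wnt signals made in distal tubules, fell from 35.4 to 41.3 CPM to 1.31 to 16.7 CPM at day 1 (log2 fold change -2.52, adjusted p = 0.0262). That call was lost when replicate 1 or 3 of day 0 or replicate 3, 4 or 5 of day 1 was left out (adjusted p up to 0.0559). Day 1 levels of Sostdc1 were 11.4 and 16.7 CPM with 3-digit numbers and 1.31 to 2.66 CPM with 1-digit numbers. Taking 3-digit or 1-digit libraries alone gave log2 fold changes of -1.47 and -4.39 (adjusted p = 0.0186 and 1.82e-05). The summed markers of thick limb and distal tubule were 6188 to 8989 CPM at day 0, 3216 to 5900.2 CPM at day 1 and 2046 to 3230 CPM at day 3, and their part was not tested. Bmp5 went from 15 to 25 reads per library at day 0 to 0 to 6 at day 1. It was admitted by the filter mainly through day 0, so the fitted log2 difference of -2.88 (adjusted p = 0.00722) is given as a value. By format the values were -3.98 with 1-digit and -2.12 with 3-digit numbers, the latter not called (adjusted p = 0.0875). Bmper, which encodes an extracellular protein that binds BMPs, was at 0 to 0.235 CPM at day 0 and 0.394 to 2.56 CPM at day 3 (fitted log2 difference 3.03, given as a value because the filter admitted it through those later libraries). Gdf15, a stress-induced ligand distant from the rest of the family, rose 14.4-fold at day 1 (adjusted p = 1.79e-05).

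Of 5 target genes of BMP, Id1 and Id3 rose at both days (log2 fold changes 1.44 and 1.75 at day 1, 2.38 and 2.08 at day 3). Id4 fell at both (-2.44 and -1.66, adjusted p = 3.98e-05 and 0.000718), and Atoh8 fell at day 1 (-1.47, adjusted p = 0.000578) with a value of -0.03 at day 3. The Id genes encode inhibitors of basic helix-loop-helix transcription factors.

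**Figure D5:**
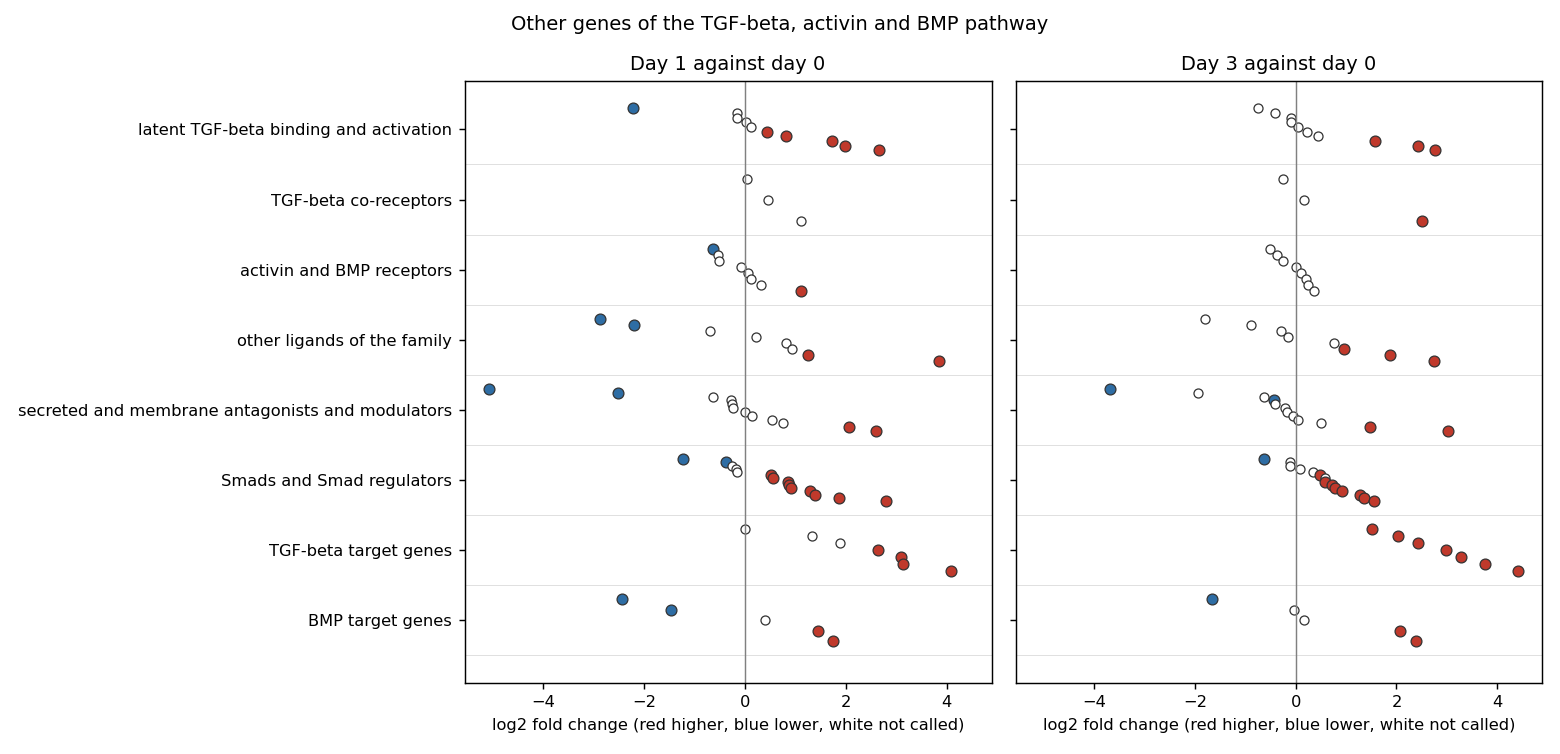
Log2 fold change against day 0 of the 67 other pathway genes (horizontal axis), grouped by role (vertical axis), at day 1 on the left and day 3 on the right, with red for genes called higher, blue for lower and white for not called. The target genes of TGF-beta reach furthest to the right, up to 4.09 for Lox at day 1 and 4.42 at day 3, and Chrdl1 lies furthest to the left at -5.08.

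For each of the 10 genes the most similar profile was sought among 13333 or 13334 other genes with a mean of at least 1 CPM, by the mean absolute difference of centred log2 CPM over the 14 libraries. Inhbb was closest to Socs3, a suppressor of cytokine signalling, with a difference of 0.37. Socs3 was at 1.74 ± 0.215 CPM at day 0 (SD, n = 4), 91.3 ± 38.2 at day 1 and 35.3 ± 17.2 at day 3 (SD, n = 5 each). Bmp2 was closest to Sgms2 (0.25), a sphingomyelin synthase, and Inhba to Lbh (0.30). Tgfb1 was closest to Banf1 (0.14), Tgfb2 to Gli3 (0.25), Tgfb3 to AI413582 (0.25) and Tgfbr1 to Insl6 (0.18). The genes with the smallest own spread had the closest matches, Tgfbr2 with Ext2 (0.096), Bmp7 with Pi4kb (0.096) and Smad7 with Csnk1d (0.10). These differences describe the 14 libraries, which share their days, formats and marker levels.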

How the data were processed

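The authors aligned the reads with STAR after Trimmomatic (versions not given in the sources used here; build mm10) and deposited raw read counts per gene symbol, unstranded and per strand. The column of the opposite strand, which held 98.5% to 98.75% of strand-assigned reads, was used. The 4 STAR entries that name no gene took 28.99% to 38.34% of reads and entered neither library sizes nor tests.

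edgeR 4.0.16 (R 4.3.3) kept 14300 genes by filterByExpr, scaled the libraries by TMM and fitted quasi-likelihood models to all 14 libraries, either by day or by day and number format. P-values were adjusted by Benjamini-Hochberg over all genes, and under 0.05 was called a change. Intervals are 95%. A prior count of 2 entered log2 CPM. Scripts were tested on simulated counts. Exon lengths and positions came from the annotation of GRCm38.

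The members and gene lists were chosen with earlier results of these data known. Per day, the pathway genes named by the size of their change are up to 4 risers and 4 fallers, if called and without overlap. Others were named for their place in the pathway after their values were seen. Only 3 that fell qualified at day 3. Cell type markers are given as sums. One pathway gene is not reported here.

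Same-numbered libraries correlated from -0.17 to 0.26, so the numbers were not treated as pairs. Counts of replicate pairs differed by more than sampling noise in chi-square tests (5.94 to 241 per degree of freedom). Alternatives were the unstranded column, RLE or total scaling, no filter, DESeq2 1.42.0, fewer libraries, the number format as a term and the replicate block. The format tests without single libraries were added after seeing the data.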

Additional observations from a re-analysis of the deposited data

Results flagged for a closer look

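Among 66 groups of values of the 10 genes and the named pathway genes, 2 held a library far from the others on the log2 scale of CPM and 5 did so on the CPM scale, by the gap to the nearest library relative to the whole range (Dixon's test). The CPM scale was added after seeing the data. Chance flags about 1 in 20 groups (3.3 expected). Tgfb1 was at 34.9 CPM in replicate 5 of day 3, beside 14.6 to 18.5 CPM in the others. Gdf15 was at 149 CPM in replicate 1 of day 1, beside 90.2 to 99.98 CPM. On the CPM scale alone, Inhbb at 61.8 CPM (beside 6.08 to 13.1) and Gdf15 at 107 CPM (beside 24.8 to 44.1) stood apart in replicate 5 of day 3, and Bmp2 at 2.69 CPM (beside 0.743 to 1.17) in replicate 4.

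The difference between 3-digit and 1-digit libraries was itself compared between the days for 22 genes, and the interaction in edgeR passed an adjusted p of 0.05 for 6 of them, beside 17.6% of all genes. The named pathway genes among them were picked for the size of their change. On the log2 scale, Tgfb1 changed by -1.27 (from 0.52 at day 1 to -0.75 at day 3) and Tgfb3 by -2.18 (from 1.17 to -1.01). Tagln changed by -3.27 (from 1.19 to -2.09, adjusted p = 0.000492). Gdf15 changed by -1.48 (from 0.39 to -1.09, adjusted p = 0.0443). Ctgf changed by -1.31, with a lower level in 3-digit libraries at both days, and Col1a1 by -2.25, with a higher mean value at both (adjusted p = 0.0255 and 0.0176). The proximal tubule markers were lower in 3-digit than in 1-digit libraries at day 1 and higher at day 3. Their part in these changes was not tested.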

How the results depend on the processing

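At day 1 and day 3 against day 0, Tgfb1, Tgfbr1, Tgfbr2 and Inhbb were called higher under each alternative, changed 1 at a time, and with each single library left out, and Smad7 was at day 1. The values that changed direction follow. For Tgfbr2, day 3 against day 1 was -0.0145 with RLE factors, -0.0057 with no filter and -0.0146 in DESeq2. For Bmp7, the format difference at day 1 was -0.0294 with RLE factors and -0.0297 in DESeq2. Scaling by totals gave 0.102 for Bmp7 at day 3 against day 0, and format differences at day 1 of 0.139 for Tgfbr1 and 0.0620 for Tgfbr2. With only 1-digit libraries, day 3 against day 1 was 0.456 for Tgfb1 and 0.682 for Tgfb3. With only 3-digit libraries, Bmp2 was -0.0162 at day 1 and -0.320 at day 3 against day 0, and Inhba was -0.263 at day 3 against day 1. The number of the 10 genes called between day 3 and day 1 was 0 with totals, with no filter and with only these days, 2 in DESeq2 and with format as a term, and 3 with only 3-digit libraries. In DESeq2, 2 were called for format at day 3. All genes called between day 3 and day 1 numbered 831 with only these days and 5194 with only 1-digit libraries, against 2276, and at day 3 against day 0 they numbered 8119 with only 1-digit libraries, against 4757. Beyond the changed number of samples or genes, the cause was not tested.

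With single libraries left out, 0 to 2 of the 10 genes and 1269 to 3350 of all genes were called between day 3 and day 1, 0 to 3 and 1997 to 4416 for format at day 1, 0 to 2 and 91 to 4771 for format at day 3, and 0 to 2 members for the change of the format difference. Counts of all genes moved by over 1.5 times without replicate 3, 4 or 5 of day 1 or replicate 1 or 3 of day 3 between the days, without replicate 2 of day 1 for format at day 1, and without replicate 1 (4771), 2, 3 or 5 (91) of day 3 for format at day 3. Day 3 against day 0 ranged from -0.128 to 0.0163 for Bmp7 and -0.276 to 0.272 for Bmp2, and day 3 against day 1 from -0.0781 to 0.0596 for Tgfbr2. Format differences at day 1 ranged from -0.234 to 0.0832 for Tgfbr1 and -0.0789 to 0.123 for Bmp7, and at day 3 from -0.495 to 0.306 for Tgfbr1, -0.164 to 0.174 for Bmp7 and -0.351 to 0.439 for Inhba.

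The replicate numbers did not pair the libraries. With a replicate block, 7, 5 and 1 of the 10 genes and 5162, 4103 and 2044 of all genes were called in the 3 day comparisons, with Inhbb called between day 3 and day 1 (-1.74) and Smad7 not (-0.45). With 1 to 17 reads per library, Inhba had the widest relative counting error of the 10 genes.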
